A study of Homo sapiens with 10 samples.

Results

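Ribosome footprint levels are described here for 10 genes of polyunsaturated and monounsaturated lipid handling, out of 20289 genes listed. The 10 were chosen by Ensembl gene ID and role: ACSL4 (ENSG00000068366), LPCAT3 (ENSG00000111684) and POR (ENSG00000127948) as drivers of phospholipid peroxidation, SCD (ENSG00000099194) and ACSL3 (ENSG00000123983) as makers of monounsaturated lipid, FADS1 (ENSG00000149485), FADS2 (ENSG00000134824) and ELOVL5 (ENSG00000012660) as desaturases and an elongase, and AGPS (ENSG00000018510) and FAR1 (ENSG00000197601) as ether lipid enzymes. The deposited values carry IDs and no names, so these symbols rest on the list of IDs and symbols by which the genes were chosen. All 10 had values in all 10 libraries and all 10 passed the filter on low values. The choice was made with earlier results of these data known. Shares of the 10 set beside those of all genes are therefore descriptions and not independent support.

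The cells were PANC-1 and CFPAC-1, established lines grown from human pancreatic ductal adenocarcinomas. They were exposed to imidazole ketone erastin (IKE), an erastin derivative that blocks cystine uptake, or to its solvent DMSO. The groups were PANC-1 with 1 µM IKE (4 libraries), PANC-1 with 0.1% DMSO (2 libraries), CFPAC-1 with 10 µM IKE (2 libraries) and CFPAC-1 with 0.1% DMSO (2 libraries), all labelled as biological replicates. Only cells still attached after washing away dead cells and debris were collected, so every IKE library describes survivors. The labels disagree on the length of exposure, which is 24 h in the treatment field and 5 days in the extraction protocol. Each line was given a single dose, and line and dose change together. Ribosome footprinting sequences the mRNA pieces that ribosomes shield from nuclease, so a level combines mRNA amount and translation. A lower level in survivors can come from fewer cells that express a gene or from less of it per cell, and these cannot be told apart. Markers of the labelled cell type could not be checked, because the IDs are not paired with names.

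Ferroptosis is a form of cell death in which iron-dependent oxidation spreads through polyunsaturated acyl chains of membrane phospholipids. ACSL4 activates arachidonic and adrenic acid to their CoA esters, LPCAT3 places such chains into lysophospholipids, and POR, cytochrome P450 oxidoreductase, passes electrons from NADPH and can feed lipid peroxidation. SCD makes monounsaturated fatty acids and ACSL3 activates them, and membranes richer in such chains oxidise less readily. FADS2 and FADS1 introduce the delta-6 and delta-5 double bonds of long polyunsaturated fatty acids, and ELOVL5 lengthens the chains between these steps. FAR1 makes the fatty alcohol and AGPS the ether bond of plasmalogens, a further pool of polyunsaturated phospholipid.

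The stretch before the transcription start is shown for the 3 genes whose level differed between the lines in DMSO (ACSL4, ACSL3 and ELOVL5) and for SCD, which had the smallest p of the 10 with IKE in CFPAC-1. These are the 250 bases before the start site, from RefSeq on GRCh38.p14, read 5′ to 3′ on the strand of the gene, with CCAAT or its reverse complement ATTGG, the box bound by NF-Y, in capitals.
ACSL4 (chrX:109733258-109733507, minus strand): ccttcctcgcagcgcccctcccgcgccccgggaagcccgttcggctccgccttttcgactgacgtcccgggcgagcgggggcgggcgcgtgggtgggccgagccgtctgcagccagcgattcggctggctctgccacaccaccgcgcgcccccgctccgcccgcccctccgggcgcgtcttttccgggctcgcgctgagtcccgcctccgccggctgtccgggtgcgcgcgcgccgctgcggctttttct
ACSL3 (chr2:222860786-222861035, plus strand): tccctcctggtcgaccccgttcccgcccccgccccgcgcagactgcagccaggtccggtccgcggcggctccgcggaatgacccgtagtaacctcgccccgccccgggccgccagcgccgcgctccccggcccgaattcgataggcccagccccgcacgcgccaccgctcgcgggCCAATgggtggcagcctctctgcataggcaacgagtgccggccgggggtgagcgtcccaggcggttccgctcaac
ELOVL5 (chr6:53348951-53349200, minus strand): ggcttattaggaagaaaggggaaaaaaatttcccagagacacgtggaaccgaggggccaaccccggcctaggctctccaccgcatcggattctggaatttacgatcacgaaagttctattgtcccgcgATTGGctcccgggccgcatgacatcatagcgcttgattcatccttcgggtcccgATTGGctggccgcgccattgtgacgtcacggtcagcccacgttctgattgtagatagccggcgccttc
SCD (chr10:100346983-100347232, plus strand): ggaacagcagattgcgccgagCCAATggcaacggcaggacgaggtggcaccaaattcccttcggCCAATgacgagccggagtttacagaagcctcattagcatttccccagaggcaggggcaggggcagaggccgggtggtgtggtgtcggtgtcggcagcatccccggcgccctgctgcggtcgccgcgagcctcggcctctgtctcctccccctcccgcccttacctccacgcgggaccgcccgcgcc
Positions are counted from the start site, with bases before it negative. CCAAT began at -75 in ACSL3 and at -229 and -186 in SCD, and ATTGG began at -122 and -68 in ELOVL5. It was not found before ACSL4. Windows of 300 bases (250 before to 50 after the start) were held for 9 of the 10 genes, POR being the exception, with 10 windows in all. CCAAT lay on either strand in a window of 6 of the 9 genes (ACSL3, LPCAT3, SCD, FADS2, ELOVL5 and FAR1). It lay in 34.6% of all 35116 such windows, a share by window and not by gene. FADS2 had 2 windows, and its match was in window 2 alone, at 6 after the start site. The sterol regulatory element letters TCACNCCAC, the C/EBP-ATF element letters TGATGNAAN and the antioxidant response element letters TGACNNNGC were in none of the members' windows, against 1.13%, 3.61% and 13.3% of all windows. Since CCAAT alone was found, no match overlapped another motif. These matches describe letters in a window and show no binding.

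FADS1 and FADS2 are neighbours on chromosome 11, at 61799627-61817003 on the minus strand and 61816203-61867354 on the plus strand (GRCh38.p14), and their gene bodies share 801 bases. The sources used here do not say whether counting used strand, so it is unknown whether footprints from the shared stretch were told apart. ACSL4 lies on chromosome X (109641335-109733257), ACSL3 on chromosome 2 (222861036-222944639), ELOVL5 on chromosome 6 (53267404-53348950) and SCD on chromosome 10 (100347233-100364826).

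The libraries differed in depth. Values are FPKM, fragments scaled to gene length and to the mapped total of the library. The annotation is not given, so the length used for each gene is unknown, and comparisons between genes depend on it. The total read number is unknown, but the steps between low values gave relative depths. Taking CFPAC-1 DMSO replicate 1 as 1, PANC-1 IKE replicates 1 to 4 had 0.875, 0.236, 0.497 and 0.211, PANC-1 DMSO replicates 1 and 2 had 0.5 and 0.332, and the CFPAC-1 libraries had 0.916 to 1.18. The share of all FPKM that went to the 10 most abundant genes was 9.29%, 16.2%, 12.2% and 23.1% in replicates 1 to 4 of PANC-1 IKE, against 8.51% and 8.58% in PANC-1 DMSO and 8.74% to 9.64% in CFPAC-1. Replicates correlated at 0.899 to 0.965 in PANC-1 IKE, 0.939 in PANC-1 DMSO, 0.979 in CFPAC-1 IKE and 0.981 in CFPAC-1 DMSO (Pearson, log2 values across genes).

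SCD was the most abundant of the 10 by mean level in each of the 4 groups. SCD stood at 1042, 589, 679 and 331 FPKM in the 4 PANC-1 IKE libraries, replicates 1 to 4, 1045 and 1321 FPKM in PANC-1 DMSO, 1731 and 1720 FPKM in CFPAC-1 IKE, and 1128 and 1095 FPKM in CFPAC-1 DMSO. In every library it lay above at least 95.89% of the genes with a value above 0. ELOVL5 came second by mean in all 4 groups, and in PANC-1 IKE its range overlapped that of SCD. FADS1 and FADS2 stood next to each other, with overlapping ranges, in every group except PANC-1 IKE, where POR lay between them and all 3 overlapped. At the low end stood AGPS, FAR1 and LPCAT3 in CFPAC-1, and ACSL4, AGPS and FAR1 in PANC-1 DMSO, where these 3 overlapped. ACSL4 was thus a mid-range gene of the set in CFPAC-1, above POR in CFPAC-1 DMSO, and among the lowest in PANC-1.

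**Figure D1:**
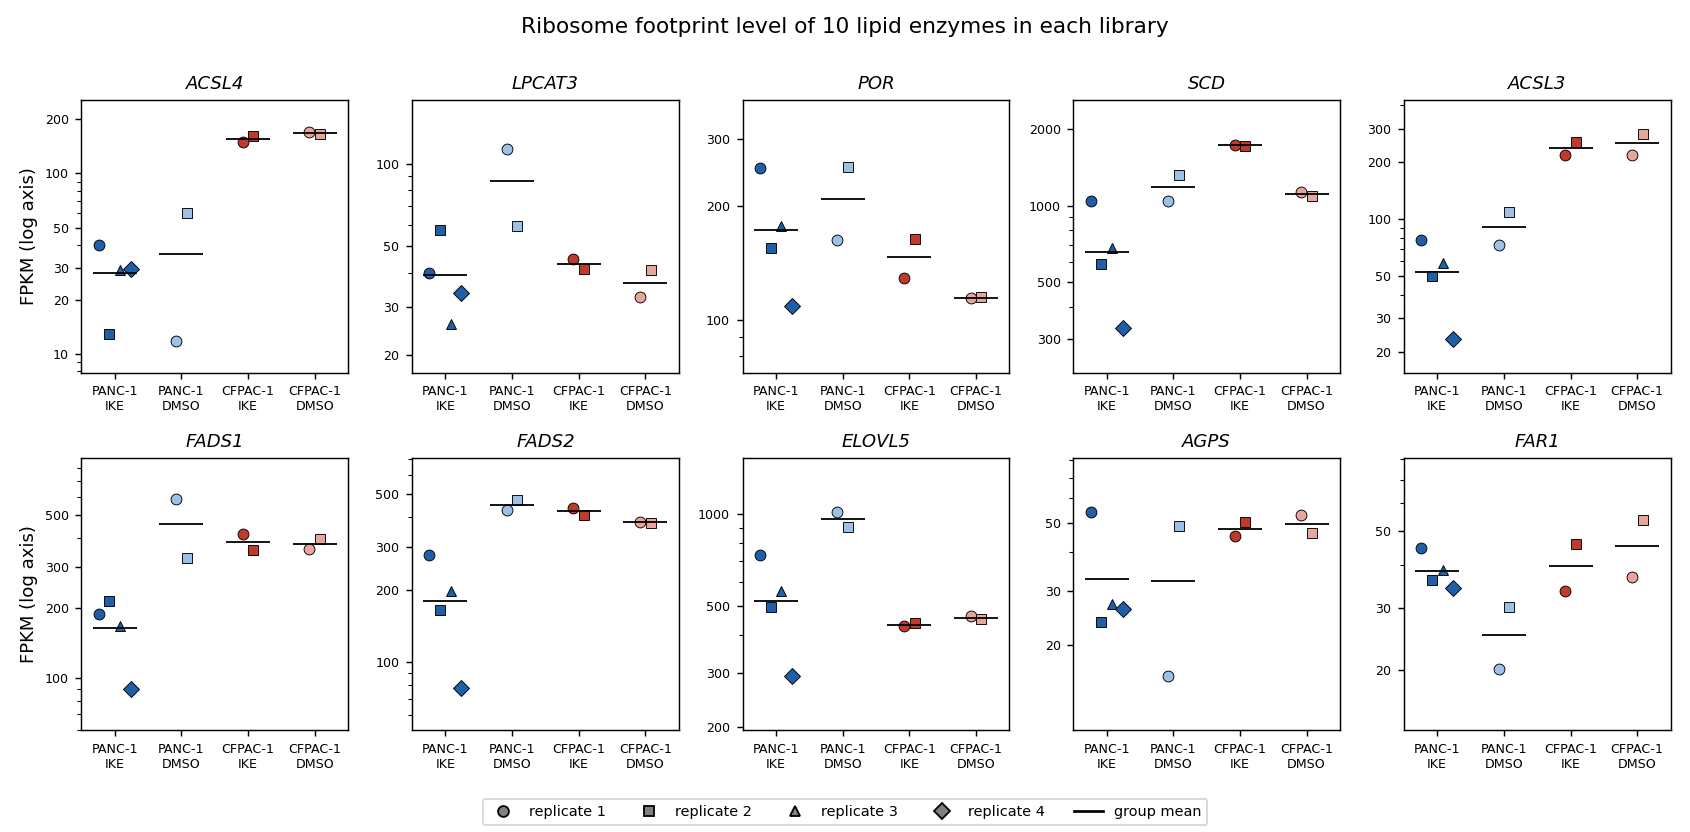
Footprint level of each gene in FPKM on a log axis, with a point per library (shape gives the replicate number), a line at each group mean, and PANC-1 IKE, PANC-1 DMSO, CFPAC-1 IKE and CFPAC-1 DMSO from left to right. CFPAC-1 points lie close together while PANC-1 points spread, as for ACSL4 at 11.8 and 60.1 FPKM in PANC-1 DMSO.

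Levels in DMSO were compared first, PANC-1 with CFPAC-1, to ask how the lines differ without IKE. ACSL4 and ACSL3 were lower and ELOVL5 was higher in PANC-1. ACSL4 averaged 36.0 ± 34.1 FPKM in PANC-1 and 168 ± 2.33 FPKM in CFPAC-1 (SD, n = 2 each). Of the 10 genes, 3 passed the test (limma on log2(FPKM + 1), a single model of all 10 libraries, Benjamini-Hochberg adjusted p under 0.05), 1 higher and 2 lower, where 33.6% of the 13125 genes tested did so, 15.1% higher and 18.5% lower. That share of members is near the share of all genes. PANC-1 and CFPAC-1 values did not overlap for 4 members that were higher in PANC-1 and 3 that were lower, where 33.8% and 36.8% of all genes showed this.

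Of the drivers, ACSL4 was at 11.8 and 60.1 FPKM in PANC-1, against 169 and 166 FPKM in CFPAC-1. Both PANC-1 libraries lay below both CFPAC-1 libraries, although they differed 5.07-fold from each other. Of 8275 genes averaging 10 FPKM or more in PANC-1 DMSO, 0.773% were as far apart between these replicates on the log2(FPKM + 1) scale. The log2 difference was -2.59 ± 0.65 (SE; limma adjusted p = 0.0121), and it was lower in 2 of 2 PANC-1 libraries. Its size rests on PANC-1 DMSO replicate 1: without that library the difference was -1.47 (limma adjusted p = 0.0821), and without replicate 2 it was -3.72 (0.00145). The call was also lost without CFPAC-1 DMSO replicate 1 (0.0726) or 2 (0.0699), where the lone library is assumed to vary like the others, and in the fit of the 4 DMSO libraries alone (0.0506).

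LPCAT3 ran the other way. It was at 113 and 59.2 FPKM in PANC-1, against 32.6 and 41.0 FPKM in CFPAC-1, and the groups did not overlap. Its log2 difference of 1.14 ± 0.40 (SE) missed the threshold (limma adjusted p = 0.0508), and it passed in 11 of 21 alternatives, among them quantile normalization (0.0305), a pseudocount of 5 (0.0463) and the fit without PANC-1 DMSO replicate 2 (0.0243). It passed as well without PANC-1 IKE replicate 2 (0.0357), 3 (0.0464) or 4 (0.0486). It did not pass without PANC-1 DMSO replicate 1, where the difference was 0.68 (0.299), or in the 4 DMSO libraries alone (0.0745). POR was at 163 and 254 FPKM in PANC-1, against 114 and 115 FPKM in CFPAC-1. The groups did not overlap, and the difference of 0.83 ± 0.38 on the log2 scale (SE) did not pass (limma adjusted p = 0.122). The 3 drivers therefore did not share a direction between the lines.

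Of the makers of monounsaturated lipid, ACSL3 was at 72.9 and 110 FPKM in PANC-1, against 219 and 282 FPKM in CFPAC-1. The groups did not overlap, and the log2 difference was -1.46 ± 0.47 (SE; limma adjusted p = 0.0369), lower in 2 of 2 PANC-1 libraries. The direction held without any single library, while of 10 fits with a library removed, only the 3 without PANC-1 IKE replicate 1, 3 or 4 kept the call (adjusted p from 0.00387 to 0.187 over the 10). It was also lost with quantile normalization (0.0605) and with no filter on low values (0.0551). SCD was at 1045 and 1321 FPKM in PANC-1, against 1128 and 1095 FPKM in CFPAC-1. Those ranges overlapped, and the 95% interval of the log2 difference ran from -0.89 to 1.05 (limma adjusted p = 0.911).

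ELOVL5 was at 1017 and 909 FPKM in PANC-1, against 461 and 451 FPKM in CFPAC-1. The replicates of each line were close and the groups stood apart. The log2 difference was 1.07 ± 0.37 (SE; limma adjusted p = 0.0464), higher in 2 of 2 PANC-1 libraries and between 0.99 and 1.16 in the 10 fits without a library, of which only those without PANC-1 IKE replicate 1 or 4 kept the call (adjusted p up to 0.171). The call was lost too with a pseudocount of 0.1 (0.0519) and with no filter (0.0632). FADS1 was at 589 and 328 FPKM in PANC-1, against 358 and 396 FPKM in CFPAC-1. FADS2 was at 427 and 472 FPKM in PANC-1, against 384 and 381 FPKM in CFPAC-1. The desaturases differed by 0.23 ± 0.41 and 0.23 ± 0.47 (SE, log2; limma adjusted p = 0.715 and 0.743).

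Both ether lipid enzymes had lower means in PANC-1, and neither passed. FAR1 was at 20.2 and 30.2 FPKM in PANC-1, against 36.8 and 53.8 FPKM in CFPAC-1, which did not overlap (log2 difference -0.82 ± 0.32, SE; limma adjusted p = 0.0687). AGPS was at 15.8 and 48.8 FPKM in PANC-1, against 52.9 and 46.3 FPKM in CFPAC-1, which overlapped (-0.80 ± 0.51, SE; 0.258). Without PANC-1 DMSO replicate 2, which leaves a lone PANC-1 DMSO library, FAR1 and AGPS passed at log2 differences of -1.10 and -1.59 (limma adjusted p = 0.0458 and 0.0343). Without PANC-1 DMSO replicate 1 the differences were -0.55 for FAR1 and -0.019 for AGPS (0.302 and 0.988), so the AGPS difference rests on which DMSO library is kept. With PANC-1 DMSO replicate 2 and IKE replicates 2 and 4 left out together, FADS1 also passed, at a log2 difference of 0.65 (0.0206).

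**Figure D2:**
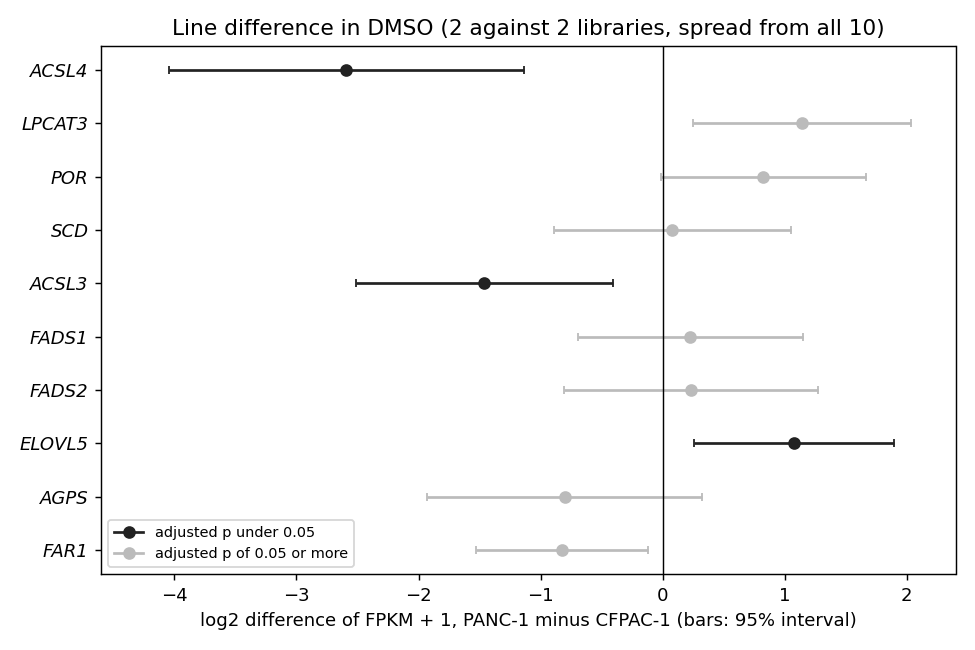
Log2 difference of FPKM + 1 between PANC-1 and CFPAC-1 in DMSO (PANC-1 minus CFPAC-1) for each gene, with 95% intervals from the model of all 10 libraries; dark points have an adjusted p under 0.05. ACSL4 at -2.59 has the widest interval, and ELOVL5 at 1.07 is the single dark point to the right of 0.

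The second comparison asked what 1 µM IKE did to the set in surviving PANC-1 cells. None of the 10 genes passed the test in the fit of the PANC-1 libraries, where 0.0159% of 12611 genes did so. The medians of the log2 fold changes were -0.91 over the 10 genes and -0.029 over all genes tested. The median over the 10 genes was -0.60 without IKE replicate 4 and -0.44 without IKE replicates 2 and 4. The desaturases, the elongase, SCD and LPCAT3 lay lower in all 4 IKE libraries than in both DMSO libraries, that is for 5 of the 10 genes, where 12.5% of all genes showed this. An unadjusted p under 0.05 was reached by 4 of the 10 genes and by 11.1% of all genes. These 4 were FADS1, FADS2, LPCAT3 and ELOVL5, all lower, where 5.7% of all genes were lower at that level. That count was 1 without DMSO replicate 1, 2 without DMSO replicate 2 and 3 to 6 without an IKE library. In simulated data with this spread and independent noise per gene, 0 of 200 genes changed 2-fold and 104 of 200 changed 4-fold were called. Sizes between these were not simulated, nor were deviations that genes share within a library.

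FADS1 was at 188, 214, 167 and 89.6 FPKM in IKE replicates 1 to 4, against 589 and 328 FPKM in DMSO. Every IKE library lay below both DMSO libraries, and the ratio of means was 0.359. On the log2 scale the fold change came to -1.48 ± 0.41 (SE; limma adjusted p = 0.383, unadjusted p = 0.00438). FADS2 was at 278, 164, 198 and 78.0 FPKM with IKE, against 427 and 472 FPKM with DMSO, again with no overlap, and its fold change came to -1.46 ± 0.45 on the log2 scale (SE; limma adjusted p = 0.404). ELOVL5 was at 731, 493, 557 and 293 FPKM with IKE, against 1017 and 909 FPKM with DMSO. It did not overlap either (-0.96 ± 0.39, SE; limma adjusted p = 0.429).

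SCD means were 660 ± 294 FPKM with IKE (SD, n = 4) and 1183 ± 196 FPKM with DMSO (SD, n = 2). Replicate 1 of the IKE group, at 1042 FPKM, nearly met the lower DMSO library, at 1045 FPKM, and on the log2 scale the fold change came to -0.95 ± 0.43 (SE; limma adjusted p = 0.455). ACSL3 was at 77.8, 50.1, 58.5 and 23.3 FPKM with IKE, against 72.9 and 110 FPKM with DMSO. Its ranges overlapped (-0.88 ± 0.46, SE; limma adjusted p = 0.496), and the value was -0.54 without IKE replicate 4.

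The drivers differed among themselves. LPCAT3 was at 39.9, 57.2, 26.0 and 33.9 FPKM with IKE, against 113 and 59.2 FPKM with DMSO, with no overlap (-1.10 ± 0.40, SE; limma adjusted p = 0.408). The LPCAT3 value was -0.64 without DMSO replicate 1 and -1.57 without DMSO replicate 2. ACSL4 was at 40.2, 12.9, 29.2 and 29.4 FPKM with IKE, against 11.8 and 60.1 FPKM with DMSO. All 4 IKE libraries fell between the DMSO libraries, and the 95% interval of the log2 fold change, from -1.40 to 1.29, covers a rise and a fall of more than 2-fold. Its value was -1.18 without DMSO replicate 1 and 1.07 without DMSO replicate 2, so the data give ACSL4 no direction in PANC-1. POR was at 253, 155, 176 and 109 FPKM with IKE, against 163 and 254 FPKM with DMSO (-0.29 ± 0.38, SE; limma adjusted p = 0.782).

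FAR1 stood on the other side of 0 from the desaturases. It was at 44.8, 36.1, 38.7 and 34.3 FPKM with IKE, against 20.2 and 30.2 FPKM with DMSO. All 4 IKE libraries were above both DMSO libraries, where 10.6% of all genes showed this, and on the log2 scale the fold change came to 0.61 ± 0.33 (SE; limma adjusted p = 0.505). AGPS was at 54.1, 23.8, 27.2 and 26.1 FPKM with IKE, against 15.8 and 48.8 FPKM with DMSO (0.14 ± 0.49, SE; limma adjusted p = 0.926).

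The IKE libraries were ordered alike for most of these genes. SCD, ACSL3, FADS2, ELOVL5, POR and FAR1 were highest in replicate 1, then 3, then 2, and lowest in replicate 4, which is also the order of relative depth and the reverse of the order of the share held by the 10 most abundant genes. That order was seen for 6 of the 10 genes and for 11.3% of the 12611 genes tested. The part of depth in these values was not tested. In DMSO, SCD, FADS2, ACSL3, POR and FAR1 did not follow the order of depth. They were higher in replicate 2 (relative depth 0.332) than in replicate 1 (0.5). ELOVL5 did follow it, at 1017 FPKM in DMSO replicate 1 and 909 FPKM in DMSO replicate 2. The 10 most abundant genes held nearly the same share of both DMSO libraries (8.51% and 8.58%). Leaving out the low-depth IKE replicates 2 and 4 together gave log2 fold changes of -1.31 for FADS1, -0.94 for FADS2, -0.59 for ELOVL5, -0.48 for SCD, -0.40 for ACSL3 and -1.32 for LPCAT3 (limma adjusted p from 0.593 to 0.753). Each library was also rescaled to its total without the genes that were among the 10 most abundant in any library of the fit. That gave -1.39 for FADS1, -1.36 for FADS2, -0.87 for ELOVL5 and -0.85 for SCD. In the model of all 10 libraries the limma adjusted p was 0.131 for FADS1, 0.153 for FADS2 and 0.187 for ELOVL5. That model pools the spread of both lines, which was smaller in CFPAC-1. For these genes in that order, the residual SD was 0.139, 0.0502 and 0.0242 in CFPAC-1. In PANC-1 it was 0.563, 0.668 and 0.480. The smaller adjusted p is therefore not separate support.

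**Figure D3:**
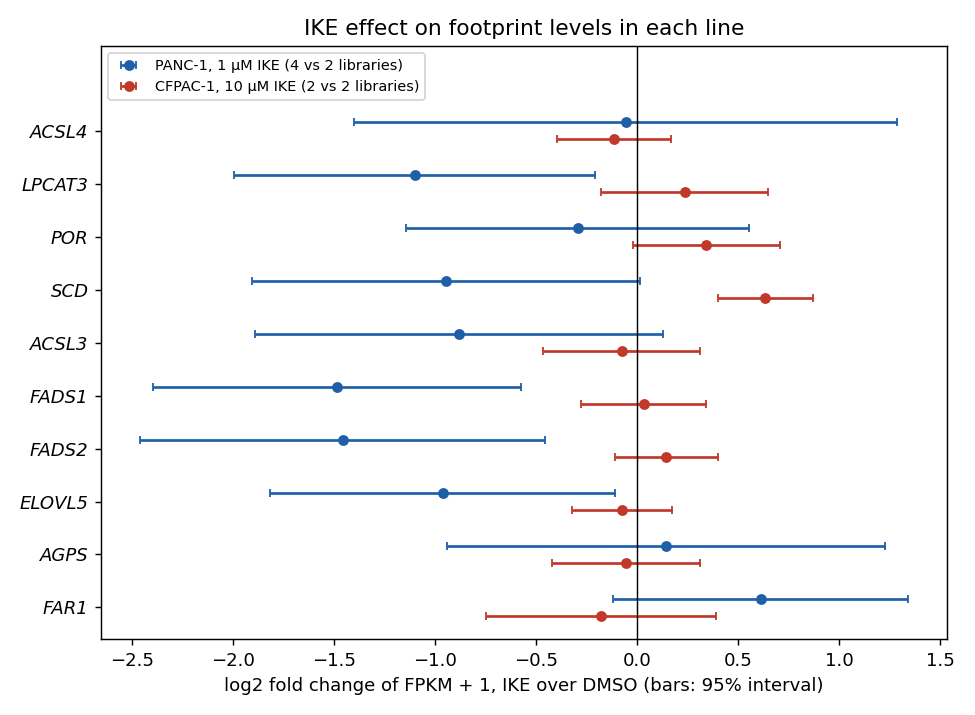
Log2 fold change of FPKM + 1 with IKE over DMSO and its 95% interval, not adjusted for the number of genes, for each gene in PANC-1 (upper, blue; 4 against 2 libraries) and CFPAC-1 (lower, red; 2 against 2 libraries). FADS1 and FADS2 sit furthest left in PANC-1, at -1.48 and -1.46, and SCD furthest right in CFPAC-1, at 0.63.

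The third comparison asked the same of 10 µM IKE in surviving CFPAC-1 cells. IKE levels lay near DMSO levels there, SCD differing most, and none of the 10 genes passed the test, where 0.127% of 12563 genes did so. An unadjusted p under 0.05 was reached by 1 of the 10 genes, SCD, and by 12.3% of all genes. The medians of the log2 fold changes were -0.0115 over the 10 genes and -0.0164 over all genes. The IKE libraries lay apart from the DMSO libraries for 4 genes on the higher side (SCD, POR, LPCAT3 and FADS2) and 2 on the lower side (ACSL4 and ELOVL5), against 20.8% and 22.9% of all genes. In simulated data with this spread and independent noise per gene, 0 of 200 genes changed 2-fold and 176 of 200 changed 4-fold were called.

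SCD was at 1731 and 1720 FPKM with IKE, against 1128 and 1095 FPKM with DMSO. The replicates of each group lay within 3.0% of each other and the groups stood apart, with a ratio of means of 1.55. The log2 fold change was 0.63 ± 0.10 (SE; unadjusted p = 0.000476, rank 41 by p of 12563 genes), and after adjustment it did not pass (limma adjusted p = 0.129). It was higher in 2 of 2 IKE libraries and between 0.61 and 0.66 in the 4 fits without a library. SCD passed in 1 of 14 alternatives, the fit with a replicate block (limma adjusted p = 0.0492). The labels do not say whether the replicates were paired. ACSL3 was at 217 and 256 FPKM with IKE, against 219 and 282 FPKM with DMSO, with overlapping values and a log2 95% interval of -0.46 to 0.31.

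ACSL4 was at 149 and 161 FPKM with IKE, against 169 and 166 FPKM with DMSO. On the log2 scale the fold change came to -0.11 ± 0.12 (SE; limma adjusted p = 0.758), with a 95% interval from -0.40 to 0.17. POR was at 129 and 164 FPKM with IKE, against 114 and 115 FPKM with DMSO (0.34 ± 0.15, SE; limma adjusted p = 0.432). LPCAT3 was at 45.1 and 41.5 FPKM with IKE, against 32.6 and 41.0 FPKM with DMSO (0.24 ± 0.17, SE; limma adjusted p = 0.634). The nearest LPCAT3 values of the groups were 41.5 and 41.0 FPKM, and the fold change was 0.074 without DMSO replicate 1.

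The desaturases and the elongase were close to level in CFPAC-1. FADS1 was at 418 and 355 FPKM with IKE, against 358 and 396 FPKM with DMSO, and its log2 95% interval was -0.28 to 0.34. FADS2 was at 438 and 409 FPKM with IKE, against 384 and 381 FPKM with DMSO (interval -0.11 to 0.40). ELOVL5 was at 428 and 438 FPKM with IKE, against 461 and 451 FPKM with DMSO (interval -0.32 to 0.17). These intervals leave out a 2-fold change in either direction, before any adjustment for the number of genes. AGPS, at 45.1 and 50.1 FPKM with IKE against 52.9 and 46.3 FPKM with DMSO, and FAR1, at 33.7 and 45.7 FPKM with IKE against 36.8 and 53.8 FPKM with DMSO, both had overlapping groups.

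Last, the IKE effect in PANC-1 was set against that in CFPAC-1, as PANC-1 minus CFPAC-1. The difference was above 0 for 3 of the 10 genes, against 49.3% of all genes, and none passed the test, where 0.0305% of 13125 genes did so. An unadjusted p under 0.05 was reached by 4 of the 10 genes (SCD, FADS1, FADS2 and LPCAT3) and by 8.41% of all genes. That count was 0 without CFPAC-1 DMSO replicate 1 or CFPAC-1 IKE replicate 1, 1 without CFPAC-1 IKE replicate 2, and 2 without CFPAC-1 DMSO replicate 2 or PANC-1 DMSO replicate 1. All 4 were below 0, where 4.76% of all genes were below 0 at that level. SCD had log2 fold changes of -0.95 in PANC-1 and 0.63 in CFPAC-1, which are -1.58 ± 0.58 apart (SE; limma adjusted p = 0.551). FADS2 differed by -1.60 ± 0.62, FADS1 by -1.52 ± 0.55 and LPCAT3 by -1.34 ± 0.53 (SE; limma adjusted p = 0.557, 0.551 and 0.568). ACSL4 differed by 0.057 ± 0.87 (SE; limma adjusted p = 0.992), an interval from -1.87 to 1.98. A difference in direction between the lines is therefore not shown for any of the 10 genes.

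Drivers were then set against makers of monounsaturated lipid within each library, as a description with no test. The mean log2(FPKM + 1) of ACSL4, LPCAT3 and POR minus that of SCD and ACSL3 was -1.93, -1.79, -1.94 and -0.88 in PANC-1 IKE replicates 1 to 4, -2.16 and -1.97 in PANC-1 DMSO, -2.67 and -2.67 in CFPAC-1 IKE, and -2.52 and -2.58 in CFPAC-1 DMSO. Every PANC-1 library lay closer to 0 than every CFPAC-1 library. Within PANC-1 all 4 IKE libraries lay above both DMSO libraries, replicate 4 by the most, and within CFPAC-1 both IKE libraries lay below both DMSO libraries. The separation was narrow: the nearest values were -1.94 (IKE) and -1.97 (DMSO) in PANC-1, and -2.67 and -2.58 in CFPAC-1. How often such means of other genes separate was not tested. The smaller gap in PANC-1 IKE replicate 4 came with a low mean for the makers (6.49) and a mean for the drivers (5.61) close to those of replicates 2 and 3 (5.65 and 5.71).

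Single ratios did not all follow that mean. The FPKM of SCD over that of ACSL4 was 25.9, 45.7, 23.3 and 11.3 in replicates 1 to 4 of PANC-1 IKE, against 88.2 and 22.0 in PANC-1 DMSO. In CFPAC-1 it was 11.6 and 10.7 with IKE, against 6.66 and 6.59 with DMSO. The CFPAC-1 ratio moved with SCD, as ACSL4 differed little there. In PANC-1 both genes differed between replicates: ACSL4 was close in IKE replicates 3 and 4 (29.2 and 29.4 FPKM) while SCD was not (679 and 331 FPKM), and in DMSO the gap was mostly in ACSL4. SCD over POR was 4.12, 3.80, 3.85 and 3.05 in replicates 1 to 4 of PANC-1 IKE, against 6.42 and 5.20 in PANC-1 DMSO, with no overlap. In CFPAC-1 that ratio was 13.5 and 10.5 with IKE, against 9.92 and 9.53 with DMSO, also with no overlap and on the other side. SCD over LPCAT3 overlapped in PANC-1, at 26.1, 10.3, 26.1 and 9.78 with IKE against 9.21 and 22.3 with DMSO. In CFPAC-1 it was 38.4 and 41.5 with IKE, against 34.6 and 26.7 with DMSO. ACSL3 over ACSL4 overlapped in both lines, at 1.94, 3.88, 2.00 and 0.794 against 6.16 and 1.83 in PANC-1. How often ratios of other genes separate was not tested.

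**Figure D4:**
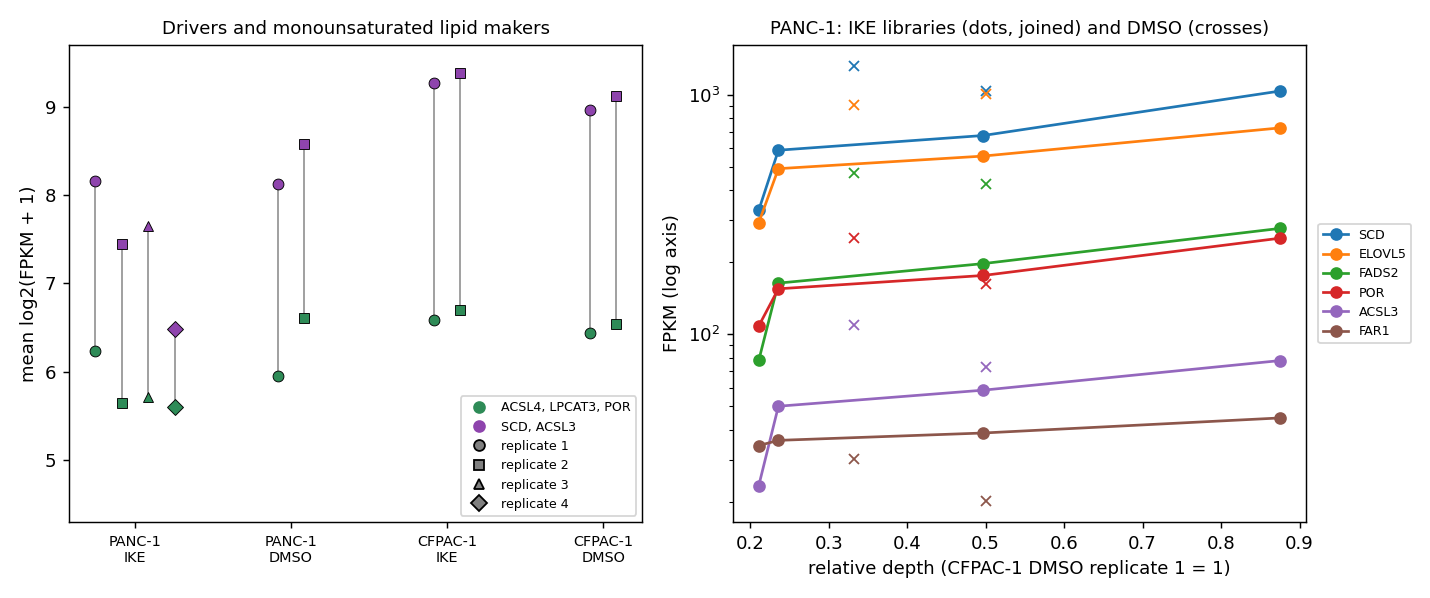
Left, mean log2(FPKM + 1) of the drivers (green) and of the makers of monounsaturated lipid (purple) in each library, joined by a line, with the replicate given by shape. Right, FPKM on a log axis against relative depth for 6 genes in the PANC-1 IKE libraries (dots) and DMSO libraries (crosses); SCD runs from 331 FPKM at a depth of 0.211 to 1042 FPKM at 0.875, while its DMSO values, 1321 and 1045 FPKM, lie above the line.

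SCD varied together with several of the other genes. With log2 values centred within each line, its Pearson correlation over the 10 libraries was 0.934 with FADS2, 0.881 with ACSL3, 0.88 with ELOVL5, 0.879 with POR and 0.735 with FADS1, as a description over libraries that share depth differences. Over the PANC-1 libraries alone these were 0.979, 0.984, 0.966, 0.89 and 0.787. CFPAC-1 did not show it for every gene: with IKE, SCD had a log2 fold change of 0.63, ACSL3 of -0.076 and ELOVL5 of -0.074. Over the 10 libraries FADS2 ranked 62, ACSL3 245, ELOVL5 248, POR 258 and FADS1 1179. These ranks are among 8955 genes that averaged 5 FPKM or more in each line. The 3 genes most like SCD were ENSG00000137642, ENSG00000090863 and ENSG00000138061 (0.991, 0.985 and 0.985). ACSL4 varied apart from SCD (0.224). Of the set it was most like AGPS (0.878, rank 129), another gene with far-apart PANC-1 DMSO replicates, and it ran opposite to LPCAT3 (-0.491). The 3 genes most like ACSL4 were ENSG00000143149, ENSG00000108578 and ENSG00000020129 (0.977, 0.972 and 0.969).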

How the data were processed

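Ribosome footprints of 10 libraries were analysed. Per the labels' protocols, RNase I was applied to lysates of cycloheximide-arrested cells, and footprints were purified by size, after which rRNA was removed. Values are FPKM, per the file headers, deposited as 1 value per gene and library. The submitters' processing notes list GRCh38 and, without saying what each did, DESeq2, RSEM, STAR, Bowtie2 2.2.8 and fastp; the sources used here do not give the annotation or strand setting. Column names tied each of the 10 columns to its library.

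Genes averaging 1 FPKM or more across the libraries in a fit were tested on log2(FPKM + 1) with limma 3.58.1 in R 4.3.3 (eBayes with trend) and Benjamini-Hochberg adjustment over all genes tested, called at an adjusted p under 0.05. Fold changes on this scale understate changes of low values. IKE effects were fitted within each line from its own libraries (2 residual degrees of freedom in CFPAC-1, 4 in PANC-1), and line differences over all 10 libraries (6). The p-values measure the spread between these libraries.

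Absolute depth is unknown, and no count test was run: whole read numbers, to within 0.08 reads, were found for only 159 of 1017 low genes in CFPAC-1 (15.6%). The relative depths of PANC-1 libraries rest on 31 to 70 low genes each. The fits were tested on simulated data with 200 changed genes, and called 0 to 7 unchanged genes. Each run used a single fold and noise independent between genes. The share of changed genes called also depends on how many genes change, so it need not hold for these data.

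The reference table named 0 Ensembl IDs, so the 6 further pathway lists and the cell type markers chosen for this work were not tested. All 10 genes are named. The genes nearest in pattern were named as the 3 with the highest correlation. The members and lists were chosen with earlier results of these data known. Alternatives varied the pseudocount, filter, scaling, library weights, replicate block, libraries and model. One rescaling left the genes among the 10 most abundant of any library in the fit out of every library's total. That rescaling was chosen after seeing the data.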

Additional observations from a re-analysis of the deposited data

Results flagged for a closer look

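SCD, FADS2 and LPCAT3 lay on opposite sides in the lines, with every IKE library below both DMSO libraries in PANC-1 and every IKE library above both in CFPAC-1. The differences of the log2 fold changes, PANC-1 minus CFPAC-1, were -1.58 for SCD, -1.60 for FADS2 and -1.34 for LPCAT3, and none passed the test of the difference (limma adjusted p = 0.551, 0.557 and 0.568). The separation was narrow for LPCAT3 in CFPAC-1, with 41.5 FPKM in the lower IKE library and 41.0 FPKM in the higher DMSO library, and its log2 fold change there, 0.24, was 0.074 without DMSO replicate 1. Of 13125 genes, 512 (3.90%) showed this arrangement and 317 (2.42%) the reverse.

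AGPS in PANC-1 IKE replicate 1, at 54.1 FPKM, stood apart from the other 3 IKE libraries (23.8 to 27.2 FPKM), the single such value among the 10 genes checked; chance flags about 1 in 20 groups.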

How the results depend on the processing

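The 10 genes kept their direction and their side of the threshold in 131 of 140 alternative values for IKE in CFPAC-1, 161 of 170 in PANC-1, 167 of 210 for the line difference and 194 of 200 for the difference of effects. None was called with IKE in PANC-1 under any alternative. The counts of called genes moved more. In CFPAC-1 the 16 calls became 4 with no filter, 1 in the model of all 10 libraries and 0 to 1 without a library. In PANC-1 the 2 calls became 0 with a pseudocount of 0.1, 1 with no filter, 1 at a mean of at least 5 FPKM, 0 without IKE replicates 2 and 4 and 0 to 3 without a library. The 4410 line differences became 6616 without the low-depth PANC-1 libraries and 2495 to 5308 without a library, and quantile normalization, which shifted the median of all genes by 0.138, turned the balance to 2354 higher and 2170 lower, against 1984 and 2426. The 4 differences of effects became 1 with a pseudocount of 5, 2 with no filter, 1 without IKE replicates 2 and 4 and 0 to 4 without a library. The causes were not tested.

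Values near 0 changed sign. In PANC-1 ACSL4 was 0.027 after rescaling without the most abundant genes, 0.050 with library weights and 0.33 without IKE replicates 2 and 4, where POR was 0.054. The SCD line difference was -0.0086 with quantile normalization and -0.089 without the low-depth libraries. Without a library, the ranges were -0.26 to 0.11 for ACSL3, -0.085 to 0.15 for FADS1, -0.15 to 0.038 for AGPS and -0.45 to 0.089 for FAR1 in CFPAC-1, -1.18 to 1.07 for ACSL4, -0.64 to 0.93 for AGPS and -0.61 to 0.025 for POR in PANC-1, -0.20 to 0.65 for FADS1 and -0.089 to 0.25 for SCD between the lines, and -1.07 to 1.18 for ACSL4 and -0.58 to 0.98 for AGPS in the difference of effects.

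The labels do not say whether replicate numbers pair the libraries. The replicate 1 minus replicate 2 deviations of IKE and DMSO correlated at -0.206 in PANC-1 and 0.0495 in CFPAC-1. Such correlations cannot decide whether the libraries were prepared as pairs. With the replicate block the counts were 65 in CFPAC-1, where SCD was then called (log2 fold change 0.63, limma adjusted p = 0.0492), 1 in PANC-1, 4612 between the lines and 0 for the difference of effects, where ACSL4 was -0.11. With the block, an unadjusted p under 0.05 was reached by 0 of the 10 genes for IKE in PANC-1, where their median was -0.55, and by 1 for the difference of effects. The scaling without mitochondrially encoded genes was not run, since they could not be named. Absolute depth is unknown, so what it limits was not measured.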

Other observations

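In PANC-1, ACSL4 was low in a library of each treatment, at 12.9 FPKM in IKE replicate 2 and 11.8 FPKM in DMSO replicate 1, and at 29.2 to 60.1 FPKM in the other 4. The same pair of libraries had the highest LPCAT3 level of their group (57.2 FPKM with IKE and 113 FPKM with DMSO), the lowest AGPS level (23.8 and 15.8 FPKM) and the highest FADS1 over FADS2 ratio (1.31 and 1.38, against 0.676 to 1.15 in the other 4). The ratio lay between 0.868 and 1.04 in CFPAC-1. Across 12611 genes, the deviation of each IKE library from the mean of the other 3 correlated with DMSO replicate 1 minus DMSO replicate 2 at -0.171, 0.16, -0.09 and 0.055 for IKE replicates 1 to 4 (Pearson, across genes, which are not independent). IKE replicate 2 thus had the highest of these correlations, while that of IKE replicate 1 was of similar size with the opposite sign. Whether IKE replicate 2 and DMSO replicate 1 share any factor was not tested, and the labels name none.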
